A study of Rattus norvegicus with 9 samples.

Results

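The 8 genes Msh6, Mutyh, Xrcc1, Parp1, Rtel1, Ddx11, Top2b and Atm, which serve the repair of mismatched, oxidised and broken DNA, were followed in rat cortical neurons under electrical stimulation. They were taken by gene symbol from a table of 32623 entries, of which 16284 passed the filter on low counts, and all 8 genes were among these. The genes were chosen on fitted changes between the groups of these same 9 libraries, so their own changes are given as a description, with no p-value.

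RNA was sequenced from primary cortical neurons of embryonic Wistar rats, wild type in every group, grown on conductive indium tin oxide (ITO) glass. The ACS group received alternating current of 3 μA and 20 Hz for 20 min a day over 7 days. The DCS group (named DES in the labels) received direct current of 3 μA for 20 min a day over 7 days, and its labels also state 20 Hz, a setting which the study's text gives for alternating current alone. The control group received no current. Each group had 3 libraries of polyadenylated RNA, labelled as day 7 in vitro, while the growth protocol describes a longer culture. Nothing in the sources ties a library to a culture of its own, and p-values here therefore speak only for the spread among these 9 libraries, which may be technical. These are bulk cultures, in which fewer cells of a type and less RNA per cell cannot be told apart.

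DNA in a neuron is damaged by oxidation and by the work of its own enzymes, and since neurons no longer divide, the lesions must be repaired rather than diluted. MSH6 detects mismatched bases. MUTYH removes an adenine placed opposite oxidised guanine, which starts base excision repair. PARP1 senses strand breaks and XRCC1 is the scaffold on which single-strand breaks are closed. RTEL1 and DDX11 are helicases that unwind unusual DNA structures at telomeres and replication forks. TOP2B is the topoisomerase of non-dividing cells that cuts both strands to release torsion, and ATM is the kinase that signals double-strand breaks. These roles are known mainly from human and mouse work.

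The sequences before the start sites of the 5 genes with the largest fitted changes under ACS are shown, since these genes moved in different directions and their promoters can be read side by side. They are RefSeq sequences of the rat build GRCr8, the 150 bases before the annotated start, with positions of that build: Mutyh at chr5:135510604-135510753 on the plus strand, Xrcc1 at chr1:89269039-89269188 on the plus strand, Rtel1 at chr3:188807848-188807997 on the plus strand, Ddx11 at chr9:113280202-113280351 on the plus strand and Msh6 at chr6:12333506-12333655 on the minus strand. Capitals mark every match, on either strand, to 9 short motifs, which are named after the sequences.
Mutyh: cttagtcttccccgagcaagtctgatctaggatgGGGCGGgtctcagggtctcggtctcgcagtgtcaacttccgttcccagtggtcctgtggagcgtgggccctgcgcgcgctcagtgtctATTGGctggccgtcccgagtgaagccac
Xrcc1: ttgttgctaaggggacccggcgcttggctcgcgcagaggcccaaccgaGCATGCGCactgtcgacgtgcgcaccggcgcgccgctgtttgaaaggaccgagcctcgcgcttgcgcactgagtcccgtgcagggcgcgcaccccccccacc
Rtel1: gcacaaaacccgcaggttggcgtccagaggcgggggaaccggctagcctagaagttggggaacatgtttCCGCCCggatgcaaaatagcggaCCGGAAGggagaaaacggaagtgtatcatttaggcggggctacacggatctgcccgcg
Ddx11: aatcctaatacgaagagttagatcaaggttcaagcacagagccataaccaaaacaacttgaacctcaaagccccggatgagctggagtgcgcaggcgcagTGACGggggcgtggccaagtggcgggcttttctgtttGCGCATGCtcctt
Msh6: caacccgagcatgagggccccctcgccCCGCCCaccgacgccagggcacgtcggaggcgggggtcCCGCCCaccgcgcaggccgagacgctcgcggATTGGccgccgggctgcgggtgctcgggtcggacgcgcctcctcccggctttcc

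Over the 250 bases before the start, the 8 promoters held 43.6 to 71.6% G or C, with Ddx11 the lowest and Msh6 the highest, against a median of 51.2% over 33469 rat promoters in the same table. They held 10 to 30 CG pairs, against a median of 5 over all promoters. The Sp1 box GGGCGG was in 5 of the 8 (Msh6, Mutyh, Rtel1, Top2b and Parp1) and in 30.5% of all promoters. CCAAT was in 3 of the 8 (Msh6, Mutyh and Top2b) and in 34.0% of all. The NRF1 motif GCGCATGC was in Ddx11 and Xrcc1 and in 2.20% of all promoters, and the ETS motif CCGGAAG was in Rtel1 and in 7.27% of all. TGACG, one end of the site of the activity-regulated factor CREB and contained in its full form, was in Mutyh, Ddx11 and Top2b and in 18.2% of all, and in Mutyh it lay upstream of the 150 bases shown. The full CREB site TGACGTCA (1.59% of all), the AP-1 site TGANTCA (6.34%), the E2F motif TTTNGCGC (1.04%) and the E-box CACGTG (5.59%) matched in none of the 8. No motif was shared by all 4 genes that were higher under ACS. A match is only a run of letters in this window, and no match says nothing of the factor.

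The libraries held totals of 49039412 to 52938628 estimated counts under ACS, 52370330 to 68133858 under DCS and 53910745 to 68690760 in the control group, where a sequenced fragment often adds about 4. Levels are given as FPKM, fragments per kilobase of transcript scaled to the size of the library, which can be compared between genes. The log2 fold changes are on the count scale, each with the standard error (SE) of edgeR's fit over all 9 libraries, and a call means a Benjamini-Hochberg adjusted p under 0.05 over all 16284 entries. Their median over all entries lay within 0.01 of 0 in every comparison. Defining markers of neurons were present in every library, at 3785 to 4264 summed CPM (counts scaled to library size) for a list of 7 neuronal markers. Microglia summed to 155 to 171, and endothelial cells to 0.307 to 2.21, with 2 of 4 endothelial markers tested. Astrocytes summed to 632 to 970, so the cultures were not neurons alone.

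In the control neurons the 8 genes spanned a wide range of levels. Top2b was the highest at 73.2 ± 5.93 FPKM, followed by Parp1 at 45.2 ± 1.39 (SD, n = 3 each). Xrcc1 averaged 18.7 ± 1.34, Msh6 14.9 ± 0.537 and Rtel1 13.3 ± 0.711 FPKM. Atm, Ddx11 and Mutyh were the lowest, at 5.52 ± 0.202, 4.52 ± 0.369 and 4.09 ± 0.117 FPKM, below the median of 7.86 FPKM over all tested entries. No neighbours in this order overlapped across the control libraries. Under ACS the order differed: Rtel1 (18.0 ± 1.502 FPKM) stood above Msh6 (11.6 ± 0.569 FPKM), and Mutyh (7.31 ± 0.471 FPKM) stood above Ddx11 (5.88 ± 0.137 FPKM) and Atm (5.57 ± 0.326 FPKM), with only Ddx11 and Atm overlapping. Under DCS, Msh6 and Rtel1 overlapped (14.3 ± 0.813 and 14.1 ± 0.461 FPKM), as did Atm, Mutyh and Ddx11 (5.22 ± 0.311, 5.20 ± 0.627 and 5.00 ± 0.310 FPKM).

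**Figure D1:**
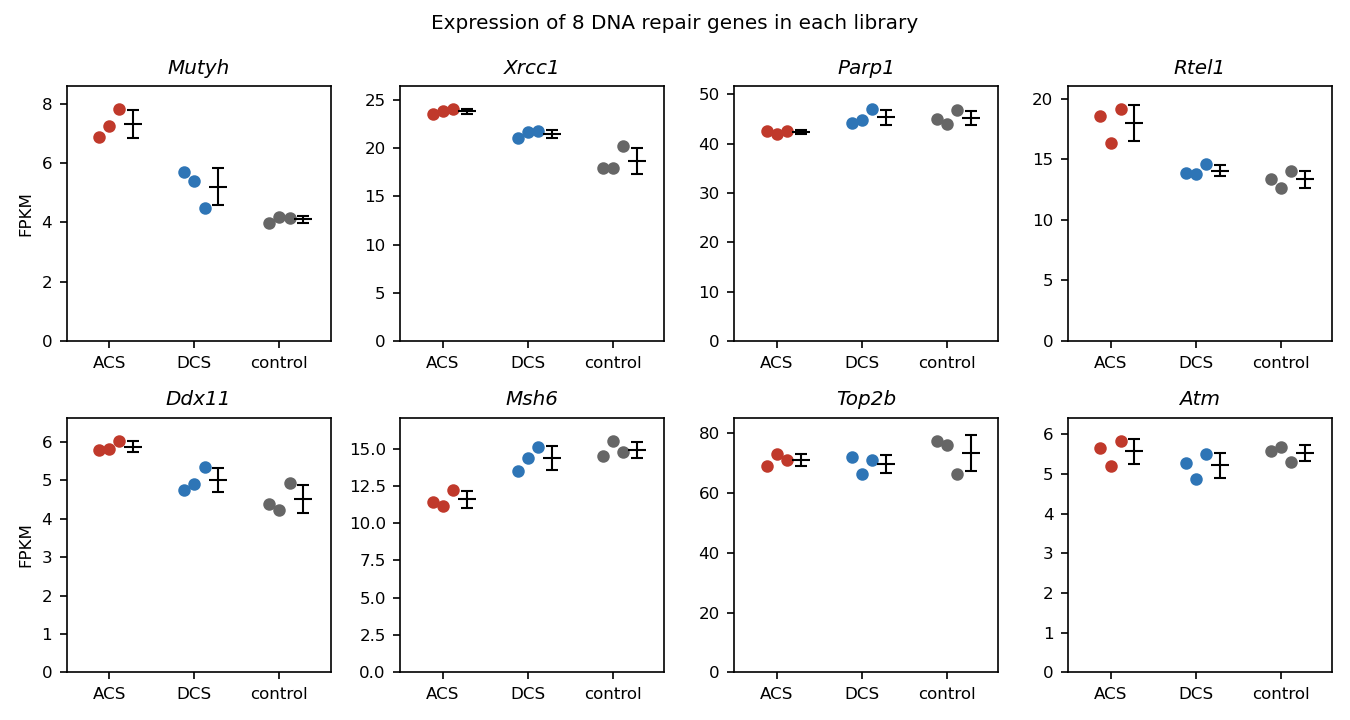
Expression of the 8 repair genes, with FPKM on the y axis from 0 and the ACS, DCS and control groups on the x axis. Each dot is a library, and the black bar with whiskers is the mean ± SD of 3 libraries. Mutyh, Xrcc1, Rtel1 and Ddx11 lay highest under ACS and Msh6 lowest, while the Top2b and Atm libraries overlapped between groups.

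The first comparison asked how alternating current altered these transcripts relative to unstimulated neurons. Under ACS, Mutyh, Rtel1, Ddx11 and Xrcc1 were higher and Msh6 was lower than in the control group, while Parp1, Top2b and Atm lay within 0.1 of 0 on the log2 scale. The call threshold was met by 4 of the 8 on the higher side and 1 on the lower side. Over all entries 2.83% were called higher and 1.33% lower, but these changes had a part in choosing the genes and the counts are a description. The ACS and control libraries did not overlap in CPM for 6 of the 8 genes, against 27.1% of all entries, and the median log2 fold change over the 8 was 0.19.

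Mutyh, the adenine glycosylase of base excision repair (ENSRNOG00000017887, chromosome 5, 135663371 to 135675344, plus strand, as the table gives it), had 6.88, 7.23 and 7.81 FPKM in the ACS libraries, 5.71, 5.39 and 4.50 FPKM in the DCS libraries and 3.96, 4.18 and 4.14 FPKM in the control libraries. Every ACS library was above every DCS library, and every DCS library above every control library. The log2 fold change of ACS over control was 0.85 (SE 0.12), or 1.80-fold, the largest of the 8. These levels rested on 609, 614 and 716 estimated counts under ACS, against 368, 495 and 458 in the deeper control libraries. The opposite-strand neighbour Toe1, a poly(A)-trimming nuclease gene with 71 bases between it and Mutyh, was at -0.05 on the log2 scale (SE 0.09; adjusted p = 0.785 by edgeR's quasi-likelihood test with Benjamini-Hochberg adjustment). Hpdl, also on the opposite strand and 487 bases beyond the other end of Mutyh, was at 0.22 (SE 0.23; adjusted p = 0.62 by the same test).

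Xrcc1, the single-strand break scaffold (ENSRNOG00000019915, chromosome 1, 81413353 to 81441678, plus strand), had 23.6, 23.8 and 24.1 FPKM in the ACS libraries, 21.1, 21.7 and 21.7 FPKM in the DCS libraries and 17.9, 18.0 and 20.3 FPKM in the control libraries. The groups were again ordered with no overlap, and control library 3 stood above its 2 partners. ACS over control was 0.36 (SE 0.05), or 1.29-fold. Without control library 3 it was 0.42. Parp1, which senses the breaks that XRCC1 helps to close (ENSRNOG00000003084, chromosome 13, 98857177 to 98889716, plus strand), had 42.6, 41.9 and 42.6 FPKM in the ACS libraries, 44.1, 44.8 and 46.96 FPKM in the DCS libraries and 45.0, 44.0 and 46.7 FPKM in the control libraries. All 3 ACS values lay below the other 6, by a margin of about the spread within the DCS and control groups, and the log2 fold change of ACS over control was -0.08 (SE 0.04).

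Rtel1, the telomere helicase (ENSRNOG00000027513, chromosome 3, 176818437 to 176856531, plus strand), had 18.6, 16.3 and 19.1 FPKM in the ACS libraries, 13.8, 13.8 and 14.6 FPKM in the DCS libraries and 13.4, 12.6 and 14.0 FPKM in the control libraries. The ACS libraries stood above the others, whose values overlapped. ACS over control was 0.45 (SE 0.07), or 1.36-fold. Ddx11, a helicase of the replication fork and of sister chromatid cohesion (ENSRNOG00000051528, chromosome 9, 114111580 to 114132492, plus strand), had 5.79, 5.81 and 6.04 FPKM in the ACS libraries, 4.75, 4.91 and 5.35 FPKM in the DCS libraries and 4.39, 4.23 and 4.93 FPKM in the control libraries. The ACS libraries were the highest, DCS and control overlapped, and control library 3 was again above its partners. ACS over control was 0.39 (SE 0.09), or 1.31-fold. An antisense entry, AABR07068650, covers the whole of Ddx11 with only 11 to 28 estimated counts a library.

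Msh6, the mismatch-binding protein gene (ENSRNOG00000016134, chromosome 6, 11644578 to 11662499, plus strand), had 11.4, 11.1 and 12.2 FPKM in the ACS libraries, 13.5, 14.4 and 15.1 FPKM in the DCS libraries and 14.5, 15.5 and 14.8 FPKM in the control libraries. It was lower in every ACS library than in any other library, and DCS and control overlapped. ACS over control was -0.35 (SE 0.06), or 0.785-fold. The positions given here put Msh6 on the plus strand, while its GRCr8 promoter sequence above is on the minus strand. The reason for this difference was not tested. Fbxo11, a ubiquitin ligase subunit gene on the opposite strand that overlaps the end of Msh6 by 144 bases, was at -0.12 on the log2 scale (SE 0.07; adjusted p = 0.332 by edgeR's quasi-likelihood test with Benjamini-Hochberg adjustment).

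Top2b, the DNA-cutting topoisomerase of neurons (ENSRNOG00000048795, chromosome 15, 10262651 to 10319741, minus strand), had 68.8, 73.0 and 70.9 FPKM in the ACS libraries, 71.8, 66.2 and 70.8 FPKM in the DCS libraries and 77.4, 75.8 and 66.4 FPKM in the control libraries. The table lists only a processed transcript for it. The widest spread was among the controls, where library 3 was the lowest, and the groups overlapped. ACS over control was -0.03 (SE 0.06), and -0.10 without control library 3. Atm, the double-strand break kinase (ENSRNOG00000029773, chromosome 8, 58015940 to 58120045, minus strand), had 5.66, 5.21 and 5.84 FPKM in the ACS libraries, 5.28, 4.88 and 5.49 FPKM in the DCS libraries and 5.59, 5.68 and 5.30 FPKM in the control libraries. The groups overlapped, and ACS over control was 0.03 (SE 0.06), with the sign turning to -0.01 without control library 3.

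Mutyh and Rtel1 kept the call with any 1 of the 9 libraries left out, at log2 fold changes of 0.70 to 0.89 and 0.40 to 0.52 over the 17 alternative fits. Xrcc1 lost it without control library 2 (0.34), and Msh6 without ACS library 1, ACS library 2 or control library 2 (-0.34 to -0.32). Ddx11 lost it in 8 of these 9 fits, all but the one without control library 3, at values of 0.35 to 0.41. It lost it also with no filter, with the 6 libraries alone, with the replicate number as a block and by limma with either pseudocount, or in 13 of the 17 alternatives. The number of the 8 that were called was 3 without ACS library 1 or ACS library 2 and 2 without control library 2. All these fits reuse libraries on which the 8 genes were chosen. They show how far a call rested on 1 library or on the method, and a kept call is no independent support.

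Some cell type markers also differed between the ACS and control libraries, where 4.16% of all entries were called. No marker of interneurons, the oligodendrocyte lineage, microglia, endothelial cells or fibroblasts was called. The summed CPM of the 9 markers of dividing and progenitor cells were 460 to 520 under ACS, 507 to 522 under DCS and 538 to 560 in the control group. Of these 9, Hes5, a Notch target of progenitors, fell by 1.54 on the log2 scale (adjusted p = 0.00612 by edgeR's quasi-likelihood test with Benjamini-Hochberg adjustment). Mki67, a gene of cycling cells, fell by 0.22 (adjusted p = 0.0449 by the same test). Above 0 were 3 of the 9, Eomes at 0.24, Sox2 at 0.05 and Pax6 at 0.05, none of them called. Of the 7 neuronal markers 1 was called, Rbfox3, which rose by 0.43 (adjusted p = 0.0081 by the same test). Among the others, 2 had values below 0, Map2 at -0.34 and Neurod6 at -0.11. Of the 7 astrocyte markers 1 was called, Gfap, which rose by 0.25 (adjusted p = 0.0281 by the same test), while Slc1a3 was at -0.30, Gja1 at -0.06 and Slc1a2 at -0.01. The sums of the neuronal and astrocyte lists overlapped between the groups. For the neuronal list they were 3897 to 4106 CPM under ACS, 3891 to 4014 under DCS and 3785 to 4264 in the control group. For astrocytes they were 632 to 970 CPM under ACS, 782 to 822 under DCS and 815 to 888 in the control group. Their part in the values of the repair genes was not tested.

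**Figure D2:**
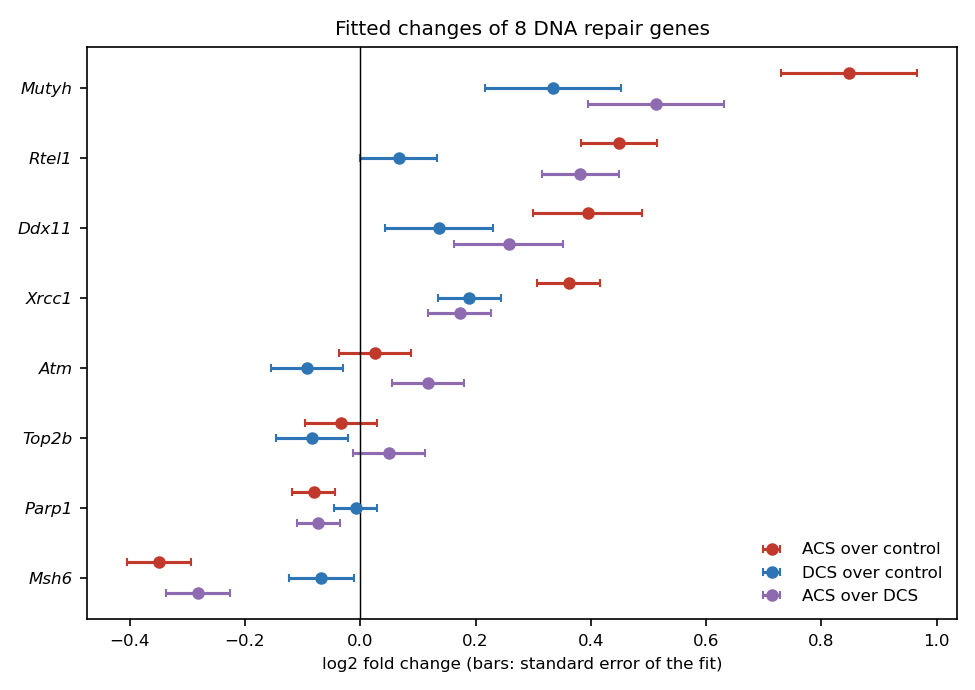
Log2 fold changes of the 8 repair genes on the x axis, with a row for each gene and a colour for each comparison. Dots are edgeR's fitted values and bars are ± 1 SE. For Mutyh the ACS over control value (0.85) was the largest and the DCS over control value (0.33) smaller, while for Msh6 ACS over control (-0.35) was below DCS over control (-0.07).

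The second comparison asked the same of direct current. No gene of the 8 met the call threshold for DCS over control by edgeR's quasi-likelihood test, and none did by DESeq2 or limma. Such calls were rare over all entries too, at 0.0123% by edgeR. Their number depended on the fit, with 38 calls by DESeq2 and 47 by edgeR without control library 3. None of the 8 was called in that fit either. At an unadjusted p under 0.05, 2 of the 8 passed (Mutyh and Xrcc1), against 7.09% of all entries, and the same 2 had groups that did not overlap, against 11.1% of all. Mutyh had a log2 fold change of 0.33 (SE 0.12) and Xrcc1 of 0.19 (SE 0.05), with all 3 DCS libraries above all 3 control libraries in each. Ddx11 stood at 0.14 (SE 0.09), Rtel1 at 0.07 (SE 0.07), Parp1 at -0.01 (SE 0.04) and Msh6 at -0.07 (SE 0.06). Top2b and Atm were at -0.08 and -0.09 (SE 0.06 each). DCS and ACS share the control libraries, so the 2 sets of values are not independent. The 8 genes were chosen on fitted changes in these libraries, so their counts here are a description.

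The third comparison set both currents side by side. Rtel1 alone of the 8 was called for ACS over DCS, against 0.633% of all entries, with a log2 fold change of 0.38 (SE 0.07). The call was lost in 7 of the 9 fits with 1 library left out (each of ACS 1, ACS 3, DCS 1, DCS 2, DCS 3, control 1 and control 2), at values of 0.34 to 0.40. Mutyh was at 0.51 (SE 0.12), Ddx11 at 0.26 (SE 0.09) and Xrcc1 at 0.17 (SE 0.05), each with all ACS libraries above all DCS libraries. Msh6 was at -0.28 (SE 0.06) and Parp1 at -0.07 (SE 0.04), with all ACS libraries below all DCS libraries. Non-overlap held in these 6 of the 8 genes and in 21.4% of all entries. The same ACS and DCS libraries served in choosing the 8 genes and in the 2 earlier comparisons. These counts are therefore a description as well. Atm stood at 0.12 and Top2b at 0.05 (SE 0.06 each), with overlapping libraries.

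The partners of these genes were read from 11 lists of repair pathways, which hold 118 other genes, 114 of them tested. For ACS over control 3 of the 114 rose and 3 fell, or 5.26%, against 4.16% of all entries. DESeq2 called 5 of the 114 higher and 11 lower, and limma 2 higher and 1 lower. Over all 16284 entries DESeq2 called 945 higher and 707 lower, and limma on log2(FPKM + 1) 354 higher and 192 lower. The median log2 fold change was -0.08 with 36 of the 114 above 0, against a median of 0.00 over all entries. For DCS over control none of the 114 was called by edgeR's quasi-likelihood test, DESeq2 or limma, and 9 had an unadjusted p under 0.05, as did 7.09% of all entries. For ACS over DCS edgeR called none, limma none and DESeq2 2, while DESeq2 called 650 of all 16284 entries. An unadjusted p under 0.05 was found for 18 of the 114, as for 13.9% of all entries. The wider set of 240 other tested entries that the table's own annotation ties to DNA repair had 6 higher and 4 lower under ACS, or 4.17%, about the 4.16% of all entries.

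In the mismatch repair list of Msh6, 2 of the 7 other tested genes were called lower by edgeR and none higher, against 4.16% of all entries called. DESeq2 called 2 of the 7 and limma only 1. Mlh3, which acts in the step after recognition, had 2.77, 2.75 and 2.89 FPKM in the ACS libraries and 3.65, 3.76 and 3.99 FPKM in the control libraries. It fell by 0.42 on the log2 scale (SE 0.08; adjusted p = 0.0223 by edgeR's quasi-likelihood test with Benjamini-Hochberg adjustment), with every ACS library below every control library. With 1 library left out, the Mlh3 call was lost in 5 of the 9 fits (adjusted p up to 0.0918; each ACS library, control 1 and control 2).

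In the base excision repair list of Mutyh, none of the 14 other tested genes was called by edgeR, DESeq2 or limma, none had an unadjusted p under 0.05, and the median was -0.05. In the single-strand break repair list, 1 of the 10 other tested genes was called higher by edgeR and none lower, against 4.16% of all entries called. Lig3, the ligase bound to XRCC1, was at -0.05 (SE 0.05) and was not called.

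Among 9 other DNA helicases, Ercc2, a subunit of the repair and transcription factor TFIIH, rose by 0.35 (SE 0.08; adjusted p = 0.0331 by edgeR's quasi-likelihood test with Benjamini-Hochberg adjustment), with 10.9, 11.4 and 9.86 FPKM in the ACS libraries and 8.50, 8.10 and 8.77 FPKM in the control libraries. Brip1, another helicase of this list, was named here after its values were seen. It was at -0.46 (SE 0.13), opposite in sign to Rtel1, Ddx11 and Ercc2, and was not called. Of the 9, 4 lay above 0. Ercc2 alone was called by edgeR, against 4.16% of all entries, while DESeq2 called 3 of the 9 and limma none. The annotation tied only Mutyh and Rtel1 of the 8 to binding of a 4 iron, 4 sulfur cluster. It gave this term neither to Ddx11 nor to Ercc2, and may not hold every gene of this kind. None of the 35 other tested entries with the term was called by edgeR or limma. DESeq2 called 2 of the 35, against 1652 of all 16284 entries. An unadjusted p under 0.05 was found for 5 of them (20.8% of all entries had one), and their median was -0.05. In the shelterin list, the telomere cap on which RTEL1 works, Acd had 20.4, 20.4 and 21.5 FPKM in the ACS libraries, against 16.3, 15.8 and 16.8 FPKM in the control libraries, and rose by 0.36 (SE 0.06; adjusted p = 0.011), while the 5 other shelterin genes were not called. Without control 1 or control 2 the adjusted p of Acd was 0.0512 to 0.0744, and the Ercc2 call was lost without ACS 1, ACS 2, DCS 2, control 1 or control 2 (up to 0.138).

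In the replication fork list edgeR called 1 of 12, against 4.16% of all entries, and limma called none. Rpa1, which coats single-stranded DNA, had 10.5, 9.49 and 10.4 FPKM in the ACS libraries, against 12.3, 12.1 and 11.98 FPKM in the control libraries, and fell by 0.24 (SE 0.05; adjusted p = 0.0335 by edgeR's quasi-likelihood test with Benjamini-Hochberg adjustment). The call was lost in 7 of the 9 fits with a library left out (all but those without DCS 3 and control 3; adjusted p up to 0.123). No other gene was called in the lists that Top2b and Atm belong to, topoisomerases and double-strand break signaling, nor in those of end joining, homologous recombination and nucleotide excision repair. In these 5 lists 12 of 56 genes (21.4%) had an unadjusted p under 0.05, against 20.8% of all entries. DESeq2 called 8 of the 56 and limma none. Over all 16284 entries DESeq2 called 1652 and limma on log2(FPKM + 1) 546.

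**Figure D3:**
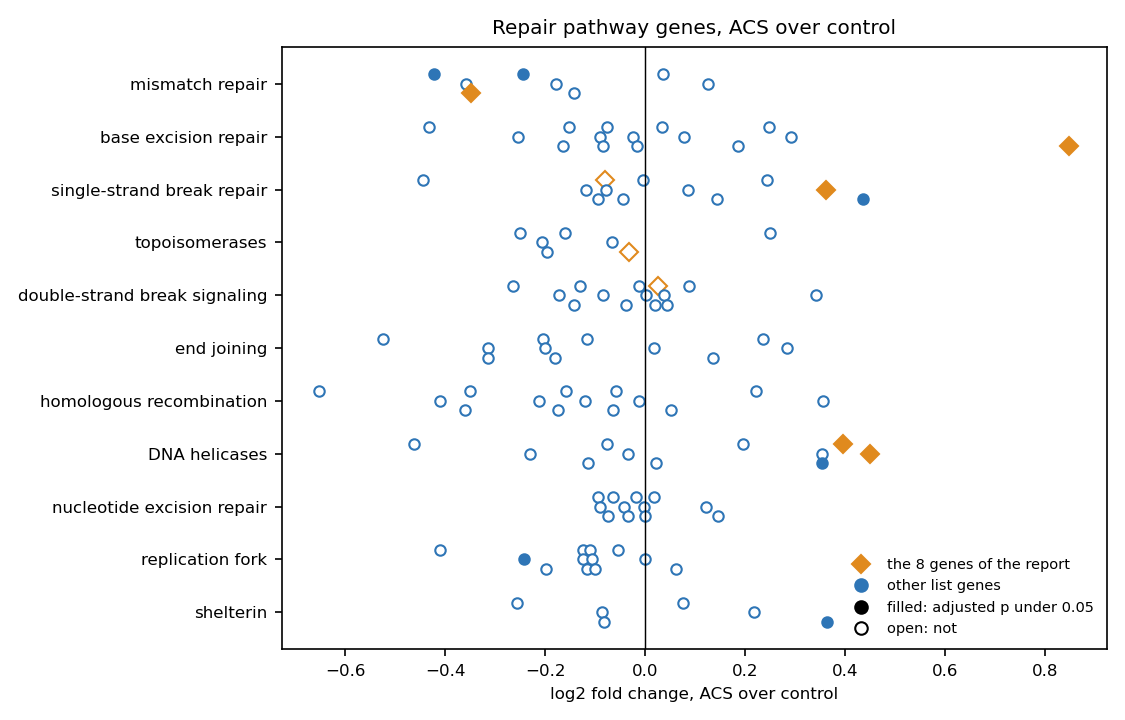
Log2 fold changes of ACS over control for the tested genes of 11 repair lists, 1 list a row, with zero marked by the vertical line. Diamonds are the 8 genes described here, circles the 114 others, and filled symbols passed an adjusted p under 0.05. Mutyh lay farthest to the right at 0.85, and Msh6 was left of zero at -0.35.

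**Figure D4:**
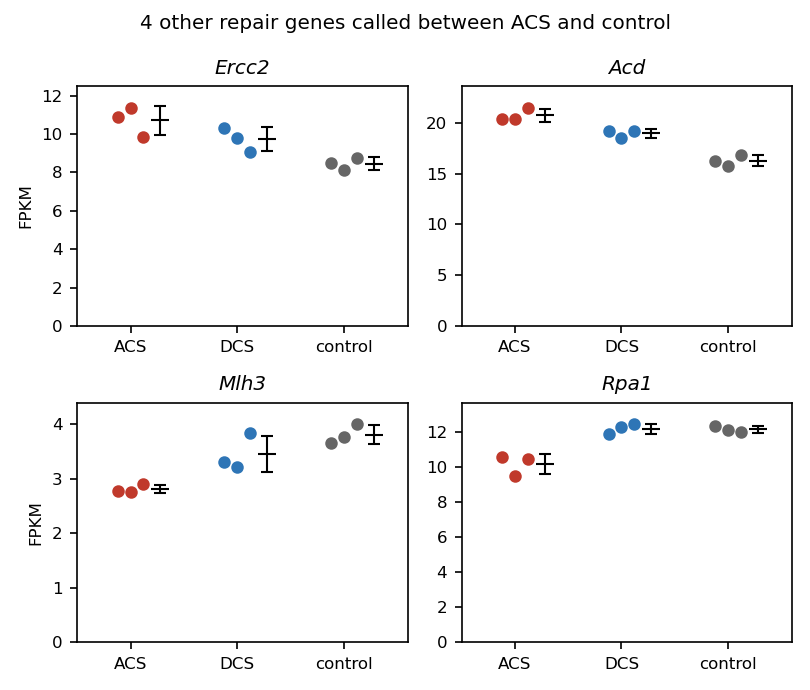
FPKM from 0 on the y axis for 4 other repair genes called between ACS and control, with the ACS, DCS and control groups on the x axis. Dots are libraries and the black bar is the mean ± SD of 3. Ercc2 and Acd lay above the control libraries under ACS, and Mlh3 and Rpa1 below them, with no overlap.

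Across the 9 libraries, the genes whose log2 CPM ran most like each repair gene were found by Pearson's r, a description over libraries that share the group structure and were the best of a search over all named entries. Mutyh ran most like Hdac10, a deacetylase gene (r = 0.994), and Adam11 (r = 0.987). Rtel1 ran most like Dgcr8, of microRNA processing (r = 0.989), and Pabpn1, a nuclear poly(A)-binding protein gene (r = 0.974). Xrcc1 was nearest to Dgkq and Mknk2 (r = 0.985 and 0.984), and Ddx11 to Rgl2 and Mbd6 (r = 0.981 and 0.977). Msh6 was nearest to the kinase gene Ttbk2 and to Msantd4 (r = 0.987 and 0.982). Parp1 was nearest to Akr1b8 and to Lig4, the ligase of end joining (r = 0.956 and 0.952), Top2b to Arl8b and Bhlhb9 (r = 0.951 and 0.945), and Atm to Zmym6 and Eif2ak1 (r = 0.984 and 0.964).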

How the data were processed

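RNA-seq of 9 libraries of rat cortical neurons (3 ACS, 3 DCS, 3 control, grouped by their labels) was read from a deposited table of FPKM values and estimated counts per gene, both made by the authors. The submitters' processing notes name cutadapt 1.9, HISAT2 2.0.4, UMI-tools and StringTie 1.3.4d, and the study's methods name fastp, HISAT2 and StringTie, with FPKM for expression levels. The genome build of the table's positions could not be settled from the sources used here, and whether strand was used in counting is not given in them. The deposited estimated counts are whole numbers that are 4, 8 or 12 in 34.1% of the counts from 1 to 15 (20% if even), so a fragment often adds about 4. The table's columns of fold changes, p-values and calls from the authors' own comparisons were not used.

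The 8 genes and all lists of repair genes and markers were chosen with earlier results of these data known. Estimated counts were fitted in edgeR 4.0.16 (R 4.3.3) with TMM scaling, a filter by filterByExpr (minimum count 10, minimum total 15) and the quasi-likelihood F test over the 3 groups, with Benjamini-Hochberg adjustment over 16284 entries and a threshold of 0.05. The SE is the fold change over the root of F. The script was tested on simulated data. Replicates of a group differed by more than sampling noise, with a chi-square per degree of freedom of 4.94 to 13.6 over the 3 pairs of each group when 4 counts were taken as a fragment, so no pair was treated as a library deposited again; library preparation alone can also exceed that noise. Named besides the 8 were list genes with an adjusted p under 0.05 (up to 4 a list and comparison), the 2 symbols with the highest Pearson correlation with each of the 8, and markers that moved with a result. Some genes that this rule takes are not reported here, though they are in the counts. Neighbouring genes, Lig3 and Brip1 were added after values were seen. Alternatives were median-of-ratios scaling, no filter, the 6 libraries of a comparison alone, replicate number as a block, counts divided by 4, limma 3.58.1 on log2(FPKM + 1) and log2(FPKM + 0.1), DESeq2 1.42.0 and leaving out each library. Promoters came from a RefSeq table of GRCr8, in which all 8 genes matched by symbol.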

Additional observations from a re-analysis of the deposited data

How the results depend on the processing

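Of 30 fold changes of single genes followed through 17 alternatives, 0 called values changed sign; Atm and Top2b for ACS over control and Parp1 for DCS over control, all uncalled and near 0, crossed zero. The number of calls depended far more on the fit. For ACS over control, calls over all entries were 678 (461 higher, 217 lower), 1652 by DESeq2 (945 higher, 707 lower) and 138 to 1431 with a library left out, lowest without control 2 and highest without control 3. The other repair genes had 6 calls, 3 with 6 libraries alone and 3 by limma with either pseudocount, 16 by DESeq2 (5 higher, 11 lower) and 0 to 8 with a library left out. Calls among the 8 genes were 5, and 2 to 5 with a library left out. For DCS over control, calls over all entries were 2, 1 with 6 libraries alone, with counts divided by 4 or by limma on log2(FPKM + 1), 38 by DESeq2 and 1 to 47 with a library left out, highest without control 3. For ACS over DCS they were 103, 64 and 65 by limma with pseudocounts of 1 and 0.1, 650 by DESeq2 (412 higher, 238 lower) and 27 to 184 with a library left out. The other repair genes had 0 calls there and 2 by DESeq2. Among the 8, 1 was called, 0 with 6 libraries alone and by limma with either pseudocount, 3 by DESeq2 (Msh6, Mutyh and Rtel1), and 0 to 1 with a library left out. The causes of these differences were not tested. Whether the replicate numbers pair the libraries was not settled. Deviations of same-numbered libraries correlated at -0.05 to 0.06 and of others at -0.06 to 0.04. Among the 3 libraries of another group, a library was nearest its own number in 9 of 18 cases. With the replicate block, calls for ACS over control were 475 over all entries, 3 among the other repair genes and 4 among the 8, those for DCS over control 1 over all entries, and those for ACS over DCS 59 over all entries. Depth limits Mutyh and Ddx11 most among the 8, since they had the fewest estimated counts.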
